A study of Mus musculus with 16 samples.

Results

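The IL-12 family is a small group of cytokines that are each built from an α chain and a β chain. IL-12 pairs p35, encoded by Il12a, with p40, encoded by Il12b. IL-23 pairs p19, encoded by Il23a, with the same p40. IL-27 pairs p28, encoded by Il27, with EBI3, and IL-35 pairs p35 with EBI3. Because the chains are shared, the transcript of one chain alone does not tell which cytokine a cell can make. Monocytes, macrophages and dendritic cells are the main sources of IL-12, IL-23 and IL-27, and IFN-γ together with the ligand of CD40 is a known way to induce p35 and p40. IL-12 drives T cells and NK cells to make IFN-γ, IL-23 sustains IL-17-producing T cells, and IL-27 both promotes and restrains T cell responses. The members were chosen by symbol, with no measured value used. Of the 5 genes named, 4 (Il12a, Il12b, Il27 and Ebi3) were found among the 13085 genes of the table, and Il23a is not analysed here, so nothing can be said about the p19 chain.

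RNA was sequenced from 16 libraries of monocytes of C57BL/6 mice that were NFAM1+/+ or NFAM1-/-, the latter made by a Cas9 deletion in C57BL/6NTac zygotes. NFAM1 is a surface receptor of myeloid cells that signals through an ITAM. Cells were left without stimulus, or pretreated with IFN-γ for 1 h and then given 1 µg/mL MegaCD40L, a multimeric form of CD40 ligand, and were taken after 6 or 24 h, with 4 libraries for each stimulus and time. The labels and the methods give unequal IFN-γ doses, and no age is given. The labels call the cells peripheral blood monocytes, while the methods describe monocytes enriched from bone marrow. A figure legend of the study gives fewer mice than there are libraries. If these are all the mice used, some libraries share mice, and which ones do is not stated. The fits treat all libraries as independent, and p-values measure the spread between libraries, which may in part be technical. Libraries are named here by the number in their titles. At 6 h the libraries 1, 2, 26 and 10 were NFAM1+/+ and 3, 4, 11 and 12 were NFAM1-/-. At 24 h the titles give 44, 45, 56 and 57 as NFAM1+/+ and 43, 46, 55 and 58 as NFAM1-/-, but the genotype tags of 44, 46, 56 and 58 name the other genotype. Stimulus and time labels do not conflict. Comparisons of stimulus and time therefore use all 16 libraries without genotype, and comparisons of genotype at 24 h are given for both labels.

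The libraries held 48295939 to 88514341 reads on the listed genes. Values are CPM, read counts of a gene divided by a scaled library size. The monocyte markers were all listed, 10 of 10, and their summed level was 22850 to 30920 CPM without stimulus and 8886 to 12090 CPM with it. All 9 dendritic cell markers were listed as well. They summed to 57.9 to 73.5 CPM without stimulus and 69.0 to 153 CPM with stimulus at 6 h, and to 195 to 344 CPM and 243 to 467 CPM at 24 h. The 8 neutrophil markers summed to 97.5 to 215 CPM without stimulus and 79.1 to 261 CPM with it at 6 h, and to 503 to 895 CPM and 92.5 to 161 CPM at 24 h. The 3 listed of 6 B cell markers summed to 134 to 153 and 311 to 371 CPM at 6 h, and to 127 to 198 and 34.5 to 42.4 CPM at 24 h, without and with stimulus. The part of these cells in the stimulus and time results was not tested. The 2 listed of 6 T cell markers summed to 0.548 to 6.81 CPM, while none of 5 NK cell markers is in the table used. In bulk RNA, fewer cells of a type and less RNA per cell cannot be told apart. Nfam1 itself was read at 408 and 432 CPM in NFAM1+/+ and at 299 and 321 CPM in NFAM1-/- without stimulus at 6 h, and at 129 and 133 against 127 and 135 CPM with stimulus. At 24 h it was at 463 and 495 CPM in NFAM1+/+ by title (libraries 44 and 45) and 441 and 391 CPM in NFAM1-/- (43 and 46) without stimulus, and at 271 and 252 (56 and 57) against 201 and 223 CPM (55 and 58) with it. So both NFAM1-/- libraries were lower by title at 24 h, while by tag the genotypes overlapped. Reads from exons outside the deletion are counted too, and the genotypes overlapped with stimulus at 6 h, where the labels do not conflict, so this level is no direct check of a single library.

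The promoters of Il12a, Il12b and Ebi3 are shown first. With stimulus at 6 h Il12a and Il12b rose and Ebi3 did not, and the part of the promoters in this was not tested. RefSeq sequences (GRCm38.p6) were matched for 3 of the 5 genes named, and Il27 and Il23a had none. Each line gives the 250 bases before a start site on the plus strand, 5′ to 3′: chr3:68690394-68690643 for Il12a, chr11:44399813-44400062 for Il12b and chr17:55952373-55952622 for Ebi3. Capitals mark matches to 5 motifs searched on both strands, which are GAS (TTCNNNGAA), the ISRE core (GAAANNGAAA), a κB site (by name), C/EBP (TTGCNNAA) and PU.1 (GAGGAA).
Il12a: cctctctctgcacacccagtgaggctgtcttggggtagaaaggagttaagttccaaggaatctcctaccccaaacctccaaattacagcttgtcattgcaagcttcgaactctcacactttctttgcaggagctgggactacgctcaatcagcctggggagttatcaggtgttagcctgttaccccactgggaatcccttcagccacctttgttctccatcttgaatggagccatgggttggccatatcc
Il12b: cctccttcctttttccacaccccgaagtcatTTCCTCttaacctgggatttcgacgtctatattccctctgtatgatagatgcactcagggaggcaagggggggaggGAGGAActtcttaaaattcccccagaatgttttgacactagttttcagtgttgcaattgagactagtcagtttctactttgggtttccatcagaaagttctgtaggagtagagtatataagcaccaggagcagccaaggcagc
Ebi3: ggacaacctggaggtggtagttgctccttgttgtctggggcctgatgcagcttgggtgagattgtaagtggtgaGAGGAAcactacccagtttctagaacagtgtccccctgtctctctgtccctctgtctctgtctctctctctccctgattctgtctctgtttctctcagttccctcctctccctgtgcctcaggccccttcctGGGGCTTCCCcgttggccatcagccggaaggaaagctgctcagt
The Il12a window held none of the motifs, and neither did that of a second Il12a start site (chr3:68691174-68691423). The Il12b window held 2 PU.1 matches, one on each strand. The Ebi3 window held 1 κB match and 1 PU.1 match. Among 32851 RefSeq promoter windows of the same length, 23.3% held a PU.1 match, 7.25% a κB match, 7.02% a GAS match, 2.98% an ISRE core match and 9.56% a C/EBP match. A match is a run of letters and not a shown binding site, and the lack of one says only that these letters are not in this window.

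Il12a, Il12b and Il27 were all low without stimulus and rose with IFN-γ plus CD40L at 6 h, while Ebi3 did not. Il12a (ENSMUSG00000027776.12, chromosome 3, 68690644 to 68698547 on the plus strand of GRCm38) encodes p35, the chain that IL-12 and IL-35 share. Its level without stimulus at 6 h was 0.270, 1.03, 0.370 and 0.686 CPM in libraries 1, 2, 3 and 4, from 30 to 78 reads. With stimulus it was 45.6, 37.6, 20.9 and 19.8 CPM in libraries 26, 10, 11 and 12. Every stimulated library was above every unstimulated one. The difference was 5.81 on the log2 scale (SE 0.36, n = 4 against 4, adjusted p = 1.26e-10, limma with Benjamini-Hochberg adjustment), or 56.2-fold.

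Il12b (ENSMUSG00000004296.14, chromosome 11, 44400063 to 44414033, plus strand) encodes p40, the chain that IL-12 and IL-23 share. It had the lowest median of the members without stimulus at 6 h, with levels of 0.571, 0.265, 0.0827 and 0.109 CPM in libraries 1, 2, 3 and 4, which is 9 to 64 reads. With stimulus it was 174 CPM in library 26, 54.9 CPM in library 10, 29.4 CPM in library 11 and 26.4 CPM in library 12. Library 26 stood 3.18-fold above library 10 of the same group. The rise was 8.09 on the log2 scale (SE 0.57, limma adjusted p = 6.99e-10), or 272-fold, the largest of the members.

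Il27 (ENSMUSG00000044701.5, chromosome 7, 126589010 to 126594941, minus strand) encodes p28, the chain specific to IL-27. It went from 2.32, 1.77, 2.35 and 1.79 CPM in libraries 1, 2, 3 and 4 to 332, 358, 357 and 361 CPM in libraries 26, 10, 11 and 12. The highest stimulated library was 1.09-fold above the lowest, the tightest group of any member with stimulus. The difference was 7.43 on the log2 scale (SE 0.17, limma adjusted p = 7.82e-17), or 173-fold.

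Ebi3 (ENSMUSG00000003206.7, chromosome 17, 55952640 to 55957022, plus strand) encodes the β chain of IL-27 and IL-35. It was read at 24.4, 36.5, 26.5 and 23.9 CPM without stimulus and at 30.0, 25.9, 29.2 and 25.8 CPM with it, in the same order of libraries. The groups overlapped, and the difference was 0.01 on the log2 scale (SE 0.14, 95% interval -0.29 to 0.31, limma adjusted p = 0.940). This value depends on the scaling. The deposited scaling makes library sizes of stimulated libraries at 6 h smaller than their reads, by a factor of 1.24 to 1.32, and those of unstimulated ones larger, with reads at 0.756 to 0.775 of the size. Scaled to total reads, Ebi3 fell by 0.72 on the log2 scale with adjusted p = 9.20e-05 (limma), while the median of all genes moved from -0.13 to -0.86. Relative to that median, Ebi3 was higher by a like amount under both scalings, and the rises of Il12a, Il12b and Il27 exceeded either shift.

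**Figure D1:**
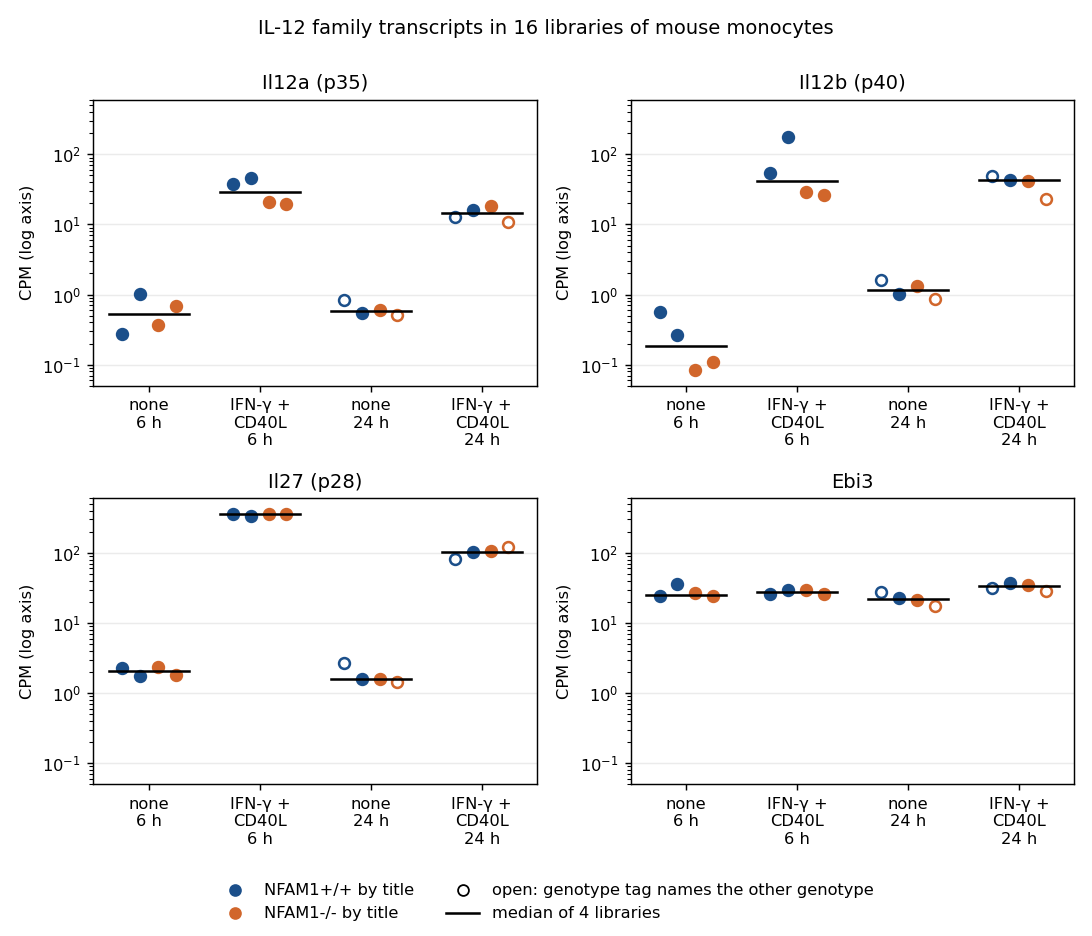
CPM (log axis) of Il12a, Il12b, Il27 and Ebi3 in each of 16 libraries, by stimulus and time, coloured by the genotype of the title, with open points for the 4 libraries whose genotype tag names the other genotype and a bar at the median of 4 libraries. Stimulated libraries lie above unstimulated ones for Il12a, Il12b and Il27 at both times, library 26 stands at 174 CPM for Il12b, and Ebi3 stays between 17.5 and 37.6 CPM in all libraries.

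At 24 h the same 3 members were higher with stimulus, by smaller factors, and Ebi3 rose slightly. Il12a was at 0.608, 0.834, 0.546 and 0.512 CPM without stimulus in libraries 43, 44, 45 and 46, and at 18.2, 12.7, 16.3 and 10.7 CPM with stimulus in libraries 55, 56, 57 and 58, a log2 difference of 4.53 (SE 0.36, limma adjusted p = 4.79e-09). Il12b was at 1.33, 1.59, 1.00 and 0.869 CPM without stimulus and at 41.4, 48.8, 43.3 and 23.3 CPM with it, a log2 difference of 5.02 (SE 0.57, limma adjusted p = 4.59e-07). Library 58 was the lowest for both chains of IL-12, and its dendritic cell marker sum of 243 CPM was the lowest of the stimulated libraries at 24 h as well. Most of that sum was Ccr7 (83.7 CPM) and Fscn1 (124 CPM), while the dendritic cell markers Clec9a (13.01 CPM) and Xcr1 (1.44 CPM) were higher in library 58 than in the other 3. The part of other cells in that value was not tested. Il27 was at 1.61, 2.70, 1.58 and 1.42 CPM without stimulus and at 107, 82.8, 102 and 121 CPM with it, a log2 difference of 5.85 (SE 0.17, limma adjusted p = 3.97e-15). Ebi3 was at 21.1, 27.6, 22.8 and 17.5 CPM without stimulus and at 35.4, 31.4, 37.6 and 28.3 CPM with it. All 4 stimulated libraries were above the unstimulated ones, by a small margin (28.3 CPM in library 58 against 27.6 CPM in library 44). The log2 difference of 0.58 (SE 0.14, limma adjusted p = 0.0013) was under the 2-fold needed for a call. An adjusted p under 0.05 (limma) was found for 9143 of 12306 genes tested.

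A gene was called when it changed at least 2-fold with an adjusted p under 0.05 across all genes tested. By that rule 3 of 4 members were called higher with stimulus at 6 h, where 18.9% of 12306 tested genes were called higher, and 3 of 4 at 24 h, where 14.6% were. Il12a and Il12b passed the filter of 1 CPM only with their stimulated libraries counted, so their being tested favoured a rise. In the separate fit of the 8 libraries at 6 h, the same 3 members were called higher in NFAM1+/+ (background 19.6% of 12111 genes) and in NFAM1-/- (background 18.8%). There the log2 rise of Il12a was 6.29 in NFAM1+/+ and 5.33 in NFAM1-/-, that of Il12b 7.98 and 8.20, and that of Il27 7.41 and 7.45. Ebi3 differed by -0.10 and 0.12 on the log2 scale, with limma adjusted p = 0.635 and 0.552.

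The effect of 24 h against 6 h differed between the members. Without stimulus only Il12b was called higher at 24 h, by 2.60 on the log2 scale (SE 0.57, limma adjusted p = 0.000826), or 6.06-fold, against a background of 12.8% called higher. All 4 libraries at 24 h, with 72 to 130 reads, lay above the 4 at 6 h, with 9 to 64 reads. With voom weights, which count such low values for less, the difference was 2.65 and not called (adjusted p = 0.350). In the unstimulated libraries the sums of monocyte, dendritic cell, neutrophil and T cell markers were also higher at 24 h, without overlap. Those of B cell markers overlapped, and of the dendritic cell markers Xcr1 was lower at 24 h. The part of these cells in the result was not tested. Il12a differed by 0.25, Il27 by -0.20 and Ebi3 by -0.32 on the log2 scale, with limma adjusted p of 0.565, 0.300 and 0.0601.

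With stimulus, Il27 and Il12a were lower at 24 h than at 6 h. Il27 fell by 1.78 on the log2 scale (SE 0.17, limma adjusted p = 3.32e-08), and every library at 24 h was below every one at 6 h. Il12a fell by 1.03 (SE 0.36, limma adjusted p = 0.0164), again with no overlap, from 19.8 to 45.6 CPM down to 10.7 to 18.2 CPM. The call of Il12a was lost without library 26, 10, 56 or 58, without the 4 libraries whose labels differ (limma adjusted p = 0.168) and under scaling to total reads. Il12b was at a median of 42.1 CPM at 6 h and 42.4 CPM at 24 h, a log2 difference of -0.47 (SE 0.57, 95% interval -1.68 to 0.75, limma adjusted p = 0.471). So 2 of 4 members were called lower, where 16.8% of all genes tested were. Cells of the 6 h and 24 h cultures may also have been prepared apart, and time and preparation cannot be told apart.

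The stimulus effect itself changed with time for all 4 members at an adjusted p under 0.05 (limma). The same held for 8168 of 12306 genes tested, so this is not particular to the family. It was smaller at 24 h by 3.06 on the log2 scale for Il12b (SE 0.81, limma adjusted p = 0.00315), by 1.58 for Il27 (SE 0.23, adjusted p = 1.56e-05) and by 1.28 for Il12a (SE 0.51, adjusted p = 0.0366), and was larger for Ebi3 by 0.57 (SE 0.20, adjusted p = 0.0186). The first 3 were called lower, beside 18.1% of all genes tested. For Il12b the unstimulated level rose between the times, whereas for Il27 and Il12a the stimulated level fell. The change for Il12a did not pass without the 4 libraries whose labels differ (limma adjusted p = 0.255), nor without library 1, 3, 26, 10, 43, 44, 56 or 58 alone (adjusted p from 0.0520 to 0.0827). It also missed with no trend (adjusted p = 0.0517), quantile normalization (0.0823), scaling to total reads (0.129) and voom weights (0.210). That for Il27 was -0.85 under quantile normalization, below the 2-fold threshold (adjusted p = 0.00386), and that for Il12b did not pass with voom weights (adjusted p = 0.275). These contrasts share libraries and are not independent of each other.

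**Figure D2:**
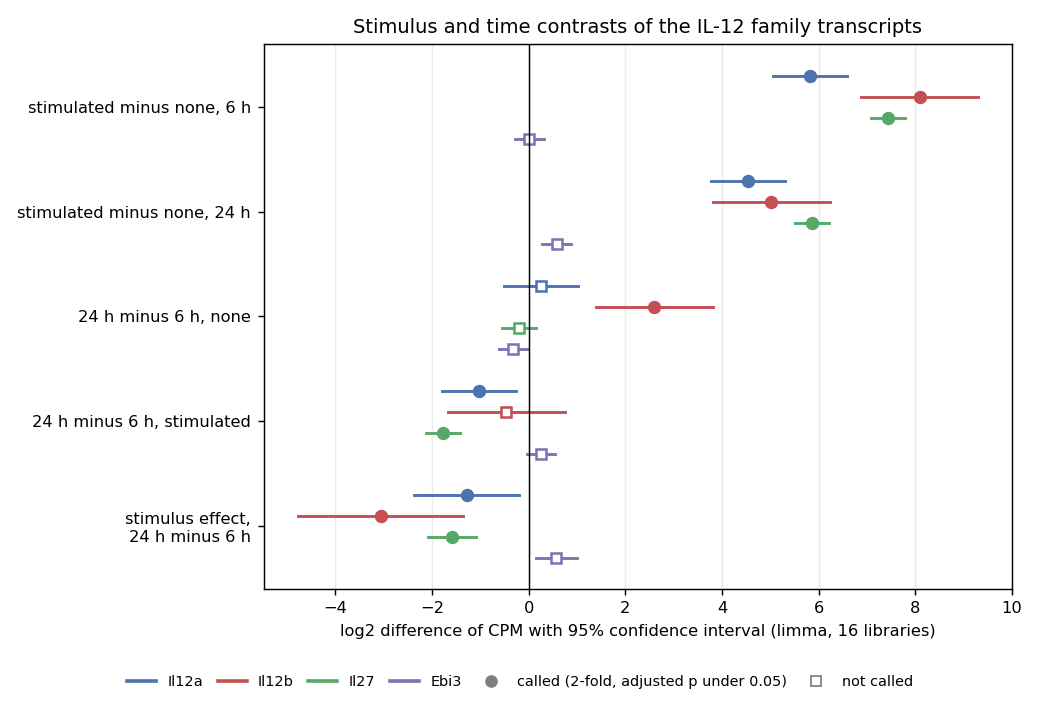
Log2 differences of CPM with 95% confidence intervals for Il12a, Il12b, Il27 and Ebi3 in 5 contrasts of stimulus and time (limma, 16 libraries), with filled circles for called genes and open squares for the others. The stimulus contrasts of Il12a, Il12b and Il27 lie from 4.53 to 8.09, those of Ebi3 at 0.01 and 0.58, and without stimulus Il12b alone is called between the times.

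Levels can be compared between genes when they are divided by exon length (CPM per kb, from the exons of each gene in the GRCm38 annotation). Without stimulus at 6 h the order of the medians was Ebi3 at 22.0, Il27 at 2.01, Il12a at 0.310 and Il12b at 0.0950 CPM per kb, and the ranges of the last pair overlapped. With stimulus at 6 h Il27 led with 350.0 CPM per kb. Ebi3 at 23.9, Il12b at 21.4 and Il12a at 17.2 CPM per kb followed with overlapping ranges, so their order is not resolved. At 24 h with stimulus the medians were 102 for Il27, 28.9 for Ebi3, 21.5 for Il12b and 8.55 CPM per kb for Il12a, and only the ranges of Ebi3 and Il12b overlapped. At 24 h without stimulus Ebi3 at 19.1 and Il27 at 1.57 CPM per kb were again the highest, followed by Il12b at 0.592 and Il12a at 0.339 CPM per kb with overlapping ranges.

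The balance between partner chains of a cytokine is a ratio within a library, so no scaling of the libraries can move it. These ratios were tested after the values had been seen, with 12 two-sided exact permutation tests of 4 libraries against 4, for which 0.0286 is the smallest possible p. Il27 over Ebi3, the chains of IL-27, had a median of 0.0923 per kb without stimulus at 6 h (0.0548 to 0.107) and of 14.7 with it (12.5 to 15.8), a 171-fold change of the ratio. The transcript in excess was thus Ebi3 without stimulus and Il27 with it, and protein was not measured here. At 24 h the ratio was 0.0784 to 0.111 without stimulus and 2.99 to 4.83 with it, a 38.5-fold difference, and with stimulus it was 4.1-fold lower at 24 h than at 6 h. None of these 3 comparisons had overlapping groups. Each gave an exact p = 0.0286 and a Benjamini-Hochberg adjusted p of 0.0571 over the 12 tests, so none passes 0.05 after adjustment.

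Il12a over Ebi3, the chains of IL-35, followed the same course at lower values. The ratio was 0.0075 to 0.0195 without stimulus and 0.485 to 1.03 with stimulus at 6 h, and 0.0162 to 0.0205 and 0.257 to 0.348 at 24 h. Per kb, the Ebi3 transcript was above that of Il12a in 15 of 16 libraries, with libraries 26 (1.03) and 10 (0.985) near a ratio of 1. The stimulus raised the ratio 55.7-fold at 6 h and 15.4-fold at 24 h, and with stimulus it was 2.44-fold lower at 24 h, each with an exact permutation p = 0.0286, adjusted 0.0571. Il12b over Il12a, the chains of IL-12, behaved less uniformly. Its range without stimulus at 6 h was 0.138 to 1.83, where Il12b rested on few reads, against 1.16 to 3.31 with stimulus, and 1.47 to 1.89 against 1.88 to 3.31 at 24 h. The exact permutation p was 0.114 for the stimulus at 6 h and 0.0571 at 24 h. Il12b exceeded Il12a per kb in all 8 stimulated libraries, and library 26, at 3.31, lay apart from the other 3 of its stimulus and time, which had values of 1.16 to 1.26. Where a ratio of 1 falls depends on the annotated exon lengths, 1701 bases for Il12a and 1967 for Il12b. Which exons these cells use was not tested, so values near 1 do not settle which transcript was in excess.

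**Figure D3:**
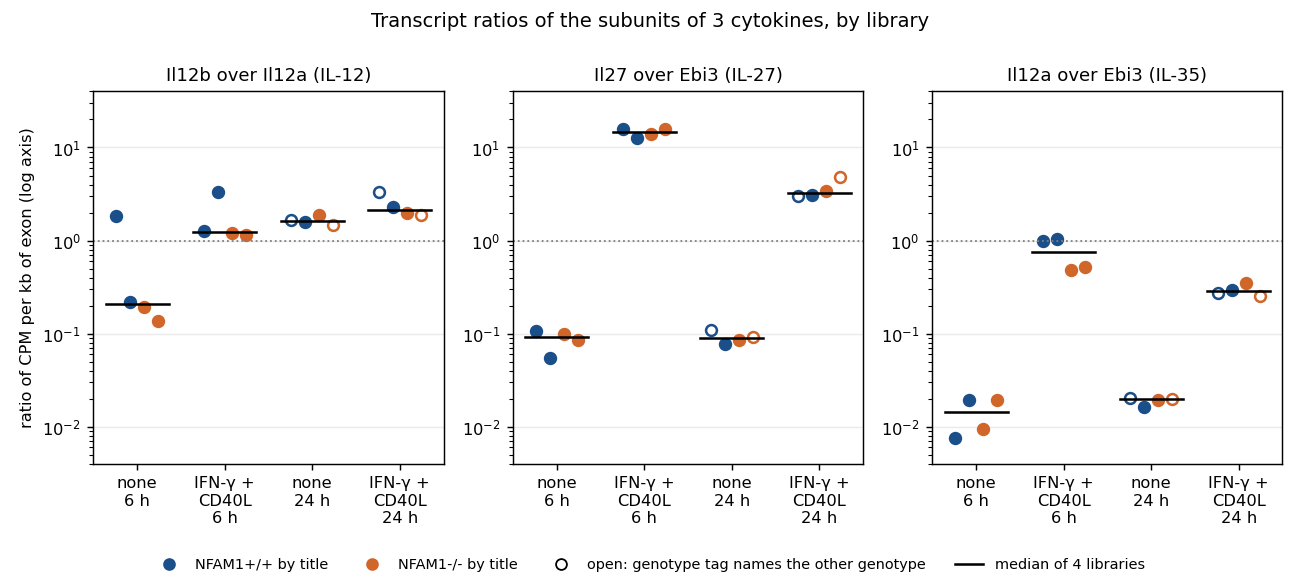
Ratio of CPM per kb of exon (log axis, dotted line at 1) for Il12b over Il12a, Il27 over Ebi3 and Il12a over Ebi3 in each library, by stimulus and time, coloured by the genotype of the title, with bars at the median of 4 libraries. Il27 over Ebi3 moves from below 1 in all unstimulated libraries to 2.99 or more in all stimulated ones. Il12b over Il12a is above 1 in all stimulated libraries, with a lowest value of 1.16.

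The study asked what loss of NFAM1 does to the monocyte response. It reported less IL-12 RNA at 6 h, and less IL-12 protein, in stimulated NFAM1-/- monocytes. Its RNA values were mean FPKM of selected genes, and its protein was measured at a later time. The test here differs from both, as it works on log2 CPM and adjusts over all genes tested. By the rule used here, with 2 libraries against 2, no member was called between the genotypes in any of the 4 comparisons. With stimulus at 6 h, Il12a (45.6 and 37.6 CPM in NFAM1+/+, 20.9 and 19.8 in NFAM1-/-) and Il12b (174 and 54.9 against 29.4 and 26.4 CPM) were lower in both NFAM1-/- libraries than in both NFAM1+/+ libraries. The same order was found for 19.0% of all genes tested. The log2 difference was -1.03 for Il12a (SE 0.54, 95% interval -2.24 to 0.19, limma adjusted p = 0.459) and -1.81 for Il12b (SE 0.52, 95% interval -2.99 to -0.63, limma adjusted p = 0.328), while 0.0330% of genes were called. The size for Il12b turned on the NFAM1+/+ libraries. Without library 26, library 10 alone stood for NFAM1+/+ and the difference was -0.98. Without library 10, library 26 alone did, and the difference was -2.65 and called. Neither value has a replicate check in that group. Il27 differed by 0.06 (95% interval -0.30 to 0.41, limma adjusted p = 0.912) and Ebi3 by -0.02 (interval -0.42 to 0.38, adjusted p = 0.972). A difference of 2-fold in either is thus outside the intervals of this fit.

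Some markers of dendritic cells, which are strong producers of IL-12, varied with the same libraries and others did not. Their sum with stimulus at 6 h was 153 and 101 CPM in libraries 26 and 10 and 69.0 and 79.3 CPM in libraries 11 and 12. Ccr7, the receptor that guides activated dendritic cells to lymph nodes, was at 66.7, 33.2, 16.2 and 24.9 CPM and Fscn1, an actin-bundling protein of mature dendritic cells, at 33.4, 26.2, 16.4 and 14.8 CPM in that order. Of the 9 markers, 4 (Ccr7, Fscn1, Xcr1 and Zbtb46) were higher in both NFAM1+/+ libraries, 2 (Flt3 and Cd209a) were lower in both, and 3 overlapped. Among all genes tested, 19.0% were higher in both NFAM1+/+ libraries and 24% were lower in both. Flt3, a growth factor receptor of dendritic cell precursors, was at 3.58, 2.59, 3.84 and 5.06 CPM. Their part in the Il12a and Il12b values was not tested. Library 26 was highest for Il12a, Il12b, Ccr7 and Fscn1, and lowest of the 4 for Il27.

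Without stimulus at 6 h, Il12b was also lower in NFAM1-/-, at 9 and 12 reads against 64 and 16. The log2 difference was -2.03 (SE 0.52, 95% interval -3.21 to -0.85, limma adjusted p = 0.247). It was the only member with non-overlapping genotypes there, where 20.4% of genes had the same order and 0.0661% were called. Il12a differed by -0.07 (95% interval -1.28 to 1.15, limma adjusted p = 0.992), Il27 by 0.02 (adjusted p = 0.995) and Ebi3 by -0.25 (adjusted p = 0.794). The change of the stimulus effect with genotype was 0.22 for Il12b (SE 0.74, 95% interval -1.45 to 1.89, limma adjusted p = 0.952), so the Il12b response in fold was not distinguished between the genotypes. For Il12a it was -0.96 (SE 0.76, interval -2.68 to 0.76, adjusted p = 0.762), for Il27 0.04 and for Ebi3 0.22. By this test 0% of genes were called, and 846 of 12111 had an unadjusted p under 0.05 (limma).

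At 24 h the sign of each genotype difference of the members depended on which label was followed. More of all genes separated the genotypes by title than by tag, and 27 and 14 genes were called by title without and with stimulus against 1 and 0 by tag (limma). With the title, the log2 differences without stimulus were -0.27 for Il12a, -0.23 for Il12b, -0.45 for Il27 and -0.38 for Ebi3, with limma adjusted p from 0.353 to 0.826. With the tag they were 0.43, 0.64, 0.48 and 0.27. By title only Ebi3 had both NFAM1-/- libraries below both NFAM1+/+ libraries, an order held by 23.3% of genes. By tag Il12a, Il12b and Il27 were higher in both NFAM1-/- libraries, as were 13.7% of genes. Of all genes tested, 0.222% were called by title.

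With stimulus at 24 h the log2 differences by title were -0.05 for Il12a, -0.57 for Il12b (SE 0.31, limma adjusted p = 0.398), 0.31 for Il27 (adjusted p = 0.532) and -0.12 for Ebi3, and 0.115% of genes were called. Both NFAM1-/- libraries were lower for Il12b (23.7% of genes had that order) and higher for Il27 (25.2%). By tag the differences were 0.20 for Il12a, 0.50 for Il12b, -0.24 for Il27 and 0.03 for Ebi3, and no member separated the genotypes, beside 14.5% of genes that did so downwards and 14.8% upwards. In the pair of libraries whose labels do not conflict, Il12b was at 43.3 CPM in NFAM1+/+ library 57 and at 41.4 CPM in NFAM1-/- library 55, and Il12a at 16.3 and 18.2 CPM. With 1 library each, that has no replicate check.

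**Figure D4:**
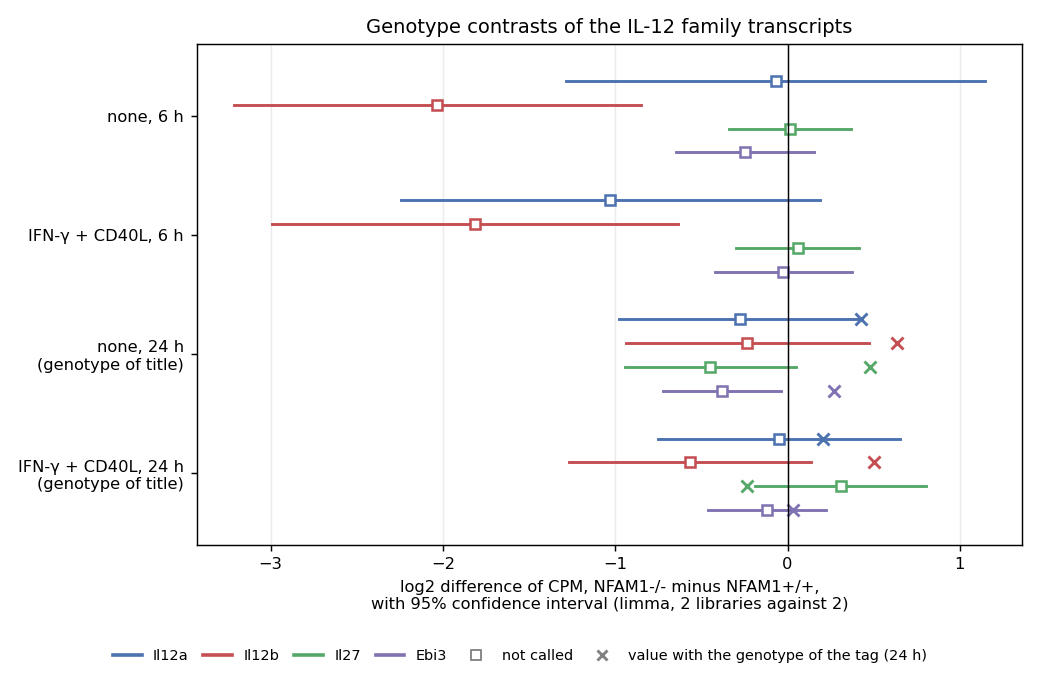
Log2 differences of CPM, NFAM1-/- minus NFAM1+/+, with 95% confidence intervals for Il12a, Il12b, Il27 and Ebi3 (limma, 2 libraries against 2), without and with stimulus at 6 and 24 h, and crosses for the values at 24 h with the genotype of the tag. No difference is called, the intervals of Il12b at 6 h lie below 0 with adjusted p of 0.247 and 0.328, and at 24 h every cross is on the other side of 0 from its square.

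The receptor chains of the family were read in the same libraries. Il12rb1, the chain that the receptors of IL-12 and IL-23 share, was at 0.0568 to 0.104 CPM without stimulus and 121 to 146 CPM with it at 6 h, a log2 rise of 10.73 (SE 0.22, limma adjusted p = 3.50e-17). At 24 h it was at 0.248 to 0.493 and 56.9 to 84.1 CPM, a rise of 7.46. Il12rb2, the second chain of the IL-12 receptor, went from 3.89 to 5.02 CPM up to 108 to 116 CPM at 6 h, a log2 rise of 4.70 (limma adjusted p = 6.68e-15), and from 4.65 to 6.95 CPM up to 23.1 to 39.9 CPM at 24 h, a rise of 2.41. Both chains of the IL-12 receptor thus rose in the same libraries as Il12a and Il12b, which does not show that the same cells carry them. Il23r, the specific chain of the IL-23 receptor, had 0 reads in all 4 unstimulated libraries at 6 h and 47 to 70 reads with stimulus, and 0 to 8 against 75 to 256 reads at 24 h.

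The chains of the IL-27 receptor did not rise. Il27ra, its specific chain, was at 0.695 to 1.77 CPM without stimulus and 1.05 to 1.41 CPM with it at 6 h, a log2 difference of 0.22 (limma adjusted p = 0.507). At 24 h it was called lower, at 1.93 to 4.40 against 1.02 to 1.59 CPM, a log2 difference of -1.04 (adjusted p = 0.00464). Under quantile normalization that difference was -0.67, below the 2-fold threshold. Il6st, the gp130 chain that IL-27 shares with IL-6, was at 137 to 147 CPM without and 123 to 152 CPM with stimulus at 6 h (log2 difference -0.08, limma adjusted p = 0.588). In all, 3 of 5 receptor chains were called higher at 6 h (background 18.9%), and 3 higher and 1 lower at 24 h (background 14.6% and 18.2%). Il12rb1 and Il23r passed the filter of 1 CPM only through stimulated libraries, so for them a rise was built into being tested.

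**Figure D5:**
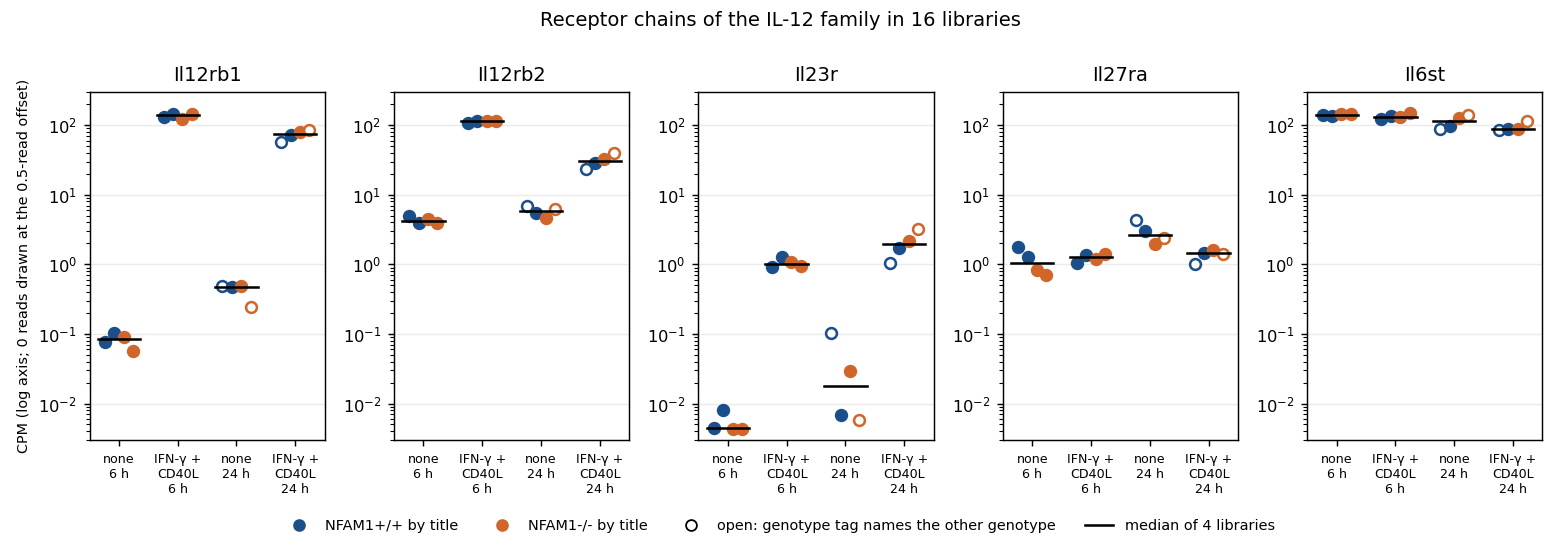
CPM (log axis) of the receptor chains Il12rb1, Il12rb2, Il23r, Il27ra and Il6st in each of 16 libraries by stimulus and time, coloured by the genotype of the title, with 0 reads drawn at the offset of 0.5 reads. Il12rb1 and Il12rb2 are higher in all stimulated libraries at both times, and Il6st lies between 84.2 and 152 CPM throughout.

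Among the kinases and STATs downstream of these receptors, Jak2, the kinase at Il12rb2 and the IFN-γ receptor, was called higher at 6 h with a log2 rise of 3.25, and Stat3 with a log2 rise of 2.02. Jak1 and Tyk2 differed by 0.62 and 0.93 and were not called. Stat4, the STAT of IL-12, was at 2.64 to 3.71 CPM with stimulus at 6 h and was called higher at 24 h (log2 rise 1.52, limma adjusted p = 0.000131). The 3 listed target genes of IL-12 family and IFN-γ signalling were all called higher at both times (background 18.9% at 6 h and 14.6% at 24 h). The log2 rises at 6 h were 9.43 for Socs1 and 4.28 for Socs3, feedback inhibitors of JAK signalling, and 9.08 for Tbx21, which encodes T-bet. Tbx21 passed the filter of 1 CPM only through stimulated libraries, so for it a rise was built into being tested. Ifng is not in the table used. The receptor for the stimulus, Cd40, rose by 4.62 and Ifngr1 fell by 2.38 at 6 h on the log2 scale.

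Of 12 transcription factors known to activate IL-12 family promoters, 7 were called higher and 1 lower at 6 h, where 18.9% and 20.3% of all genes tested were. The largest rises were Irf1 (log2 rise 6.50, from 38.6 to 44.5 CPM up to 3524 to 3902 CPM) and Irf8 (3.36), interferon regulatory factors that act at the Il12a and Il12b promoters. Jun rose by 2.41, Batf3 by 2.23, Nfkb1 by 1.29, Rela by 1.08 and Irf5 by 1.04, and Fos, the partner of Jun, fell by 1.80. Scaled to total reads the counts were 4 higher and 1 lower, without Nfkb1, Rela and Irf5. Rel, the NF-κB subunit most tied to Il12b, changed by 0.92 and was not called. It was at 412 CPM in library 26 and at 256 CPM or more in the other 3 libraries of that stimulus and time. At 24 h 5 were called higher and 2 lower (background 14.6% and 18.2%), and the stimulus effect was called smaller at 24 h for 7 and larger for 2 of the 12 (background 18.1% and 13.4%).

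Of the repressors, Maf and Atf3 were called higher at 6 h (log2 rises 2.81 and 2.11) and lower at 24 h (-1.15 and -1.10), while Nfil3, which restrains Il12b, differed by 0.54 and 0.82. Il10 is not in the table used. Among 6 other cytokines of monocytes, 5 were called higher at 6 h, where 18.9% of all genes tested were. The log2 rises were 6.04 for Il15, 4.40 for Il6, 3.07 for Il18, 2.94 for Tnf and 2.59 for Il1a. Il1b was called lower (-1.25), as were 20.3% of all genes tested. Of these cytokines, Il6 passed the filter of 1 CPM only through stimulated libraries, so for it a rise was built into being tested. Il6 took the opposite course to Il27 between the times. Its stimulus effect was larger at 24 h by 1.71 (limma adjusted p = 0.00226), with 12.4 to 20.7 CPM at 6 h and 24.7 to 52.4 CPM at 24 h. Between the genotypes, none of the genes of these lists was called at 6 h, and Tbx21 alone was called lower without stimulus at 24 h by title (-1.93, limma adjusted p = 0.0411), at 8 reads or fewer per library.

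Genes whose log2 CPM followed a member most closely over the 16 libraries were ranked by Pearson's r among 12302 genes, as a description, since the libraries share the stimulus and time groups. For Il12a they were Rnf24 (r = 0.988), Olfr56 (0.987) and Slc31a2 (0.986). For Il12b they were Anxa4, Car13 and Mmp25 (all r = 0.982), and for Il27 Cacybp, Serpina3g and 1110038F14Rik (all r = 0.997). For Ebi3 the values were lower, with Pyroxd1 at 0.869, Vps72 at 0.868 and Zswim9 at 0.858. Among the members r was 0.975 between Il12a and Il27, 0.938 between Il12a and Il12b and 0.920 between Il12b and Il27. After the mean of each stimulus and time was subtracted, r was 0.306 between Il12a and Il12b and -0.150 between Il12a and Il27, so most of the likeness lies between the stimulus and time groups. The closest genes were then Inhba for Il12a (r = 0.880), Slc39a14 for Il12b (0.909), Abcg3 for Il27 (0.919) and Vamp8 for Ebi3 (0.908).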

How the data were processed

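The authors aligned paired, non-stranded polyA reads with STAR, counted them with Rsubread and normalized with edgeR. Their processing notes name GRCm39, limma and FastQC, and tool versions are not given in the sources used here. The deposited table holds log2 CPM for 13085 genes in 16 libraries. Each value equals log2 of whole reads plus 0.5 over a scaled library size (100% within 0.1 reads), from which reads and CPM were computed. At 48295939 to 88514341 reads per library, the spread between libraries limits precision more than depth, except for Il12b and Il12a without stimulus.

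The deposited log2 values were fitted with limma 3.58.1 (R 4.3.3, moderated test with trend, Benjamini-Hochberg adjustment). Genes with at least 1 CPM in 2 libraries (fits of 6 h and of 24 h, 4 groups by title) or 4 libraries (all 16, groups by stimulus and time) were tested, and called at 2-fold and an adjusted p under 0.05. Count models were not run, since the deposited unit is log2. With 2 libraries against 2, an exact permutation test cannot go below 0.333. Every pair of libraries of a group differed by more than sampling noise. Scripts were tested on simulated data.

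Members, gene lists and tests were chosen with earlier results of these data known. The genes named were the members, all genes of the pathway and marker lists, and for each member the 3 genes of highest r. Of the lists, 1 gene is not reported here. The ratios and the motif search were added after values had been seen. Positions are from GENCODE vM21 on GRCm38, not the authors' build. The alternatives were testing all genes, a minimum mean of 5 CPM, only the groups compared, no trend, robust estimation (statmod 1.5.0), quantile normalization, centring on medians, scaling to total reads, voom weights, genotype as a term, the genotype tag, only libraries whose labels do not conflict, and leaving out each library. Dates stand in place of 17 symbols and 1 symbol occurs more than once, none of them a member.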

Additional observations from a re-analysis of the deposited data

Results flagged for a closer look

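Library 26 was the lowest of the 4 stimulated libraries at 6 h for Il27, and its gap to the next library made up 0.861 of the range of the group, above Dixon's 95% critical value for 4 samples. Of 16 groups of 4 libraries examined this was the only one, and chance alone gives about 1 in 20. The gap is small in size, 332 CPM against 357 to 361 CPM. The same library was the highest for Il12b.

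The stimulus effect differed between 24 h and 6 h for each member by a test of the difference itself (limma interaction). It differed by 0.572 on the log2 scale for Ebi3, by -3.065 for Il12b, by -1.283 for Il12a and by -1.579 for Il27. The adjusted p of this limma test was under 0.05 for 8168 of 12306 genes, so such a difference is common. The Il12b value rests on unstimulated levels of 9 to 64 reads at 6 h, and the cause was not tested.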

How the results depend on the processing

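The rises of Il12a, Il12b and Il27 with stimulus, at both times and in both genotypes at 6 h, and the fall of Il27 from 6 to 24 h with stimulus kept direction and call in every alternative run, 13 of 18 called member comparisons. No called comparison reversed. No paired analysis was possible because the groups share no replicate numbers. No alternative called a member between the genotypes except leaving out library 10.

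Quantile normalization gave 1 member called in stimulus by time (main value 3), Il27 at -0.0073 between genotypes without stimulus at 6 h and Il12a at -0.089 between the times without stimulus. Scaling to total reads left 1 member called between the times with stimulus (2 before), put the Ebi3 stimulus effect at 6 h at -0.72 over all libraries and -0.61 in NFAM1-/-, and moved the share called higher of all genes called from 48.2% to 21.7% at 6 h, 44.5% to 30.7% at 24 h, 49.3% to 69.7% between the times with stimulus and 42.6% to 68.1% for stimulus by time. Centring on medians put Ebi3 in NFAM1+/+ with stimulus at 0.042. Voom weights left 0 members called between the times without stimulus (Il12b 2.65, limma adjusted p = 0.350) and 1 in stimulus by time, and gave genotype differences without stimulus at 6 h of 0.14 for Il12a and -0.034 for Il27. Without the 4 libraries whose labels differ, 1 member was called between the times with stimulus.

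Genotype by the tag at 24 h gave 0.43 for Il12a, 0.64 for Il12b, 0.48 for Il27 and 0.27 for Ebi3 without stimulus, and 0.20, 0.50, -0.24 and 0.030 with it. The libraries whose labels do not conflict gave 0.15 for Il12a, 0.40 for Il12b and 0.028 for Il27 without stimulus and 0.15 for Il12a with it.

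Leaving out each library in turn, members called ranged from 0 to 1 between genotypes with stimulus at 6 h (1 without library 10) and from 1 to 2 between the times with stimulus (1 without 26, 10, 56 or 58). Genotype differences without stimulus at 6 h ranged from -1.04 to 0.90 for Il12a, -0.18 to 0.21 for Il27 and -0.54 to 0.046 for Ebi3, and with stimulus from -0.13 to 0.081 for Ebi3. Genotype by stimulus ranged from -1.93 to 0.0086 for Il12a, -0.61 to 1.05 for Il12b, -0.15 to 0.24 for Il27 and -0.07 to 0.51 for Ebi3. The stimulus at 6 h ranged from -0.39 to 0.19 in NFAM1+/+ and from -0.053 to 0.15 over all libraries for Ebi3. Time ranged from -0.061 to 0.58 for Il12a without stimulus and from -0.79 to 0.11 for Il12b with it. At 24 h genotype differences ranged from -0.58 to 0.031 for Il12a and -0.57 to 0.10 for Il12b without stimulus, and from -0.43 to 0.33 for Il12a and -0.28 to 0.043 for Ebi3 with it.

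Genes called between genotypes ranged over all alternatives from 0 to 25 (main value 8) without and 0 to 131 (4) with stimulus at 6 h, 0 to 69 (0) for genotype by stimulus, and 1 to 55 (27) and 0 to 216 (14) at 24 h. The cause of these changes was not tested.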
